A study of Mus musculus with 18 samples.

Results

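Mitochondria carry their own ribosome, which translates the few mRNAs encoded by mitochondrial DNA, all of them for subunits of the respiratory chain and ATP synthase. Its RNAs come from mitochondrial DNA, but its proteins are encoded in the nucleus, made in the cytosol and imported. Some of these proteins descend from the bacterial ancestor and others were added later, and in the mouse most carry the symbols *Mrps* (small subunit) and *Mrpl* (large subunit). The genes described here are all rows of the expression table whose symbol starts with Mrpl or Mrps followed by a digit, leaving out symbols that contain -ps. This rule gave 77 of 18659 genes, 29 of them *Mrps* and 48 *Mrpl*, and 46 of the 77 have a homologue in bacterial ribosomes. The symbols do not match the ribosome in every case: the proteins of *Mrps18a* and *Mrps30* sit in the large subunit, and that of *Mrps36* is now known as a component of the α-ketoglutarate dehydrogenase complex. The genes were counted here by symbol.

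RNA-seq was done on male E14 mouse embryonic stem cells (mESCs) grown in serum (FCS) with LIF on gelatin and treated for 24 h with siRNA to *Stag1*, a subunit of the cohesin complex. The question was how the transcriptome responds to the loss of *Stag1*. Of the siRNAs to *Stag1*, SP was a commercial SmartPool and 3p a pool of commercial siRNAs against the 3′ end of its mRNA. The siRNA 5p was a custom duplex against the 5′ end, which the methods give as 1 sequence and the labels count among the pools. SATS was an enzymatically prepared siRNA against the 5′ UTR of the SATS transcript of *Stag1*. By the paper's design, 3p was to retain C-terminally truncated isoforms and 5p N-terminally truncated ones. The catalogue endings listed for 3p also occur among those listed for SP, with another prefix letter. Controls were scrambled siRNA (scr), luciferase siRNA and untreated cells. Set 1 held 1 scr and 3 SP libraries (a, b and c), set 2 held scr, SP, 3p, 5p, SATS and untreated cells, and set 3 held scr, SP, 3p, 5p, SATS and luciferase siRNA, with 1 library of each. All libraries come from 1 cell line and carry no other genetic change, and RNA was depleted of rRNA. Nothing states whether the sets were separate thaws or passages, so p-values measure the spread among these libraries only. Without the set as a term in the fit, this is the spread between the sets. With it (the replicate block), it is the spread left once the mean set difference is removed.

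The values are reads per gene divided by a size factor for each library, called normalized value below. Depth differed by set. In set 1 a library had 9023224 to 14040830 reads assigned to genes, of which the rRNA precursor *Rn45s* took 69.2% to 79.1%, and in sets 2 and 3 it had 32137666 to 45660840, with 14.7% to 23.9% on *Rn45s*. The 77 genes received 4674 to 13395 reads per library in set 1 and 81932 to 124269 in sets 2 and 3. No member was at 0 in any library, and the lowest read count of a member was 14 in set 1 and 203 in the other sets. *Stag1* stood at 17.3% to 32.8% of its level in the matching scr library with SP, 3p and 5p, at 50.5% and 49.7% with SATS, at 86.3% in untreated cells and at 104% with luciferase siRNA. The pluripotency markers *Pou5f1*, *Sox2*, *Nanog*, *Zfp42*, *Esrrb*, *Tdgf1* and *Dppa5a* were present in all 16 libraries, with their lowest normalized value at 1796. Fewer cells of a type and less RNA per cell cannot be told apart in such bulk samples.

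Among the comparisons of an siRNA with scr, *Mrpl49* under 5p had the lowest adjusted p of these genes, and the sequence of the 5p duplex can be set beside it. The guide strand of an siRNA can also pair with other mRNAs through its bases 2 to 8 (the seed), and GTGGAAG is the heptamer that pairs with the seed of the 5p duplex, when the strand listed for the duplex is read as the sense strand. The longest protein-coding transcript of each gene (GENCODE M21, build GRCm38, the same as mm10) was searched for it on the sense strand. *Mrpl49* and *Mrpl50* each held 4 copies, 2 in the coding sequence and 2 in the 3′ UTR, the highest numbers among the 77 genes. They are shown so that the 2 transcripts can be compared, with the heptamer in capitals.
Mrpl49, coding, exon 3 of 4, chr19:6055087-6055093, minus strand: tgattcggaaaGTGGAAGgtgacatctggg
Mrpl49, coding, exon 4, chr19:6054961-6054967: tacagaaggatGTGGAAGaatttctgagcc
Mrpl49, 3′ UTR, exon 4, chr19:6054559-6054565: ttgtgcattgtGTGGAAGcatcccctgtca
Mrpl49, 3′ UTR, exon 4, chr19:6054116-6054122: ggccgggcgtgGTGGAAGctatggaacaga
Mrpl50, coding, exon 1 of 2, chr4:49521003-49521009, minus strand: agaggctggctGTGGAAGcttcccttggca
Mrpl50, coding, exon 2, chr4:49514540-49514546: tggcagagacaGTGGAAGaagtgaaaaaag
Mrpl50, 3′ UTR, exon 2, chr4:49513636-49513642: aaggcaagcagGTGGAAGgaaaatcagacc
Mrpl50, 3′ UTR, exon 2, chr4:49512750-49512756: cataagtaaagGTGGAAGaaagggcaacgt

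The 77 genes were expressed at moderate levels. Their mean normalized values over the 16 libraries ran from 115 to 1523 with a median of 482, against a median of 467 over the 11026 genes with a mean of at least 50. *Mrpl15* (1523), *Mrpl12* (1300.1) and *Mrpl17* (1292) had the highest mean values, and *Mrps36* (115), *Mrps33* (138) and *Mrpl14* (173) the lowest. *Mrpl12*, whose product belongs to the stalk that recruits translation factors, ranged from 917 in scr of set 1 to 1858 in SATS of set 3. Reads of *Mrps36* are uncertain, since the annotation names 3 pseudogene copies of it.

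Compared per length (mean normalized value per kb of the longest protein-coding transcript), the order changed. *Mrpl12* (988 per kb), *Mrpl42* (962 per kb) and *Mrpl18* (820.3 per kb) were highest, and *Mrpl48* (45.6 per kb), *Mrps25* (63.0 per kb) and *Mrpl32* (83.6 per kb) were lowest, a range of 21.7-fold. The longest transcript was used for every gene, so the per-length level of a gene that mostly makes a shorter transcript is too low, and *Mrpl48* has 1 named pseudogene copy and overlaps *Rab6a* on the other strand. The median per-length level was 329 per kb for the small subunit and 360.2 per kb for the large subunit, which differ by far less than the range within either. The 3 *Mrps18* paralogues, of which *Mrps18c* is counted here among the genes with a bacterial homologue and the other two are not, were unequal, with *Mrps18b* at 668 per kb, *Mrps18a* at 428 per kb and *Mrps18c* at 388 per kb. *Mrps12*, a protein of the decoding centre, stood at 329 per kb, *Mrps22*, mutated in a lethal mitochondrial disease, at 335, *Mrps30* at 245, *Mrpl3* at 161, *Mrpl44*, which resembles a ribonuclease, at 356 and *Mrps36* at 164 per kb.

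**Figure D1:**
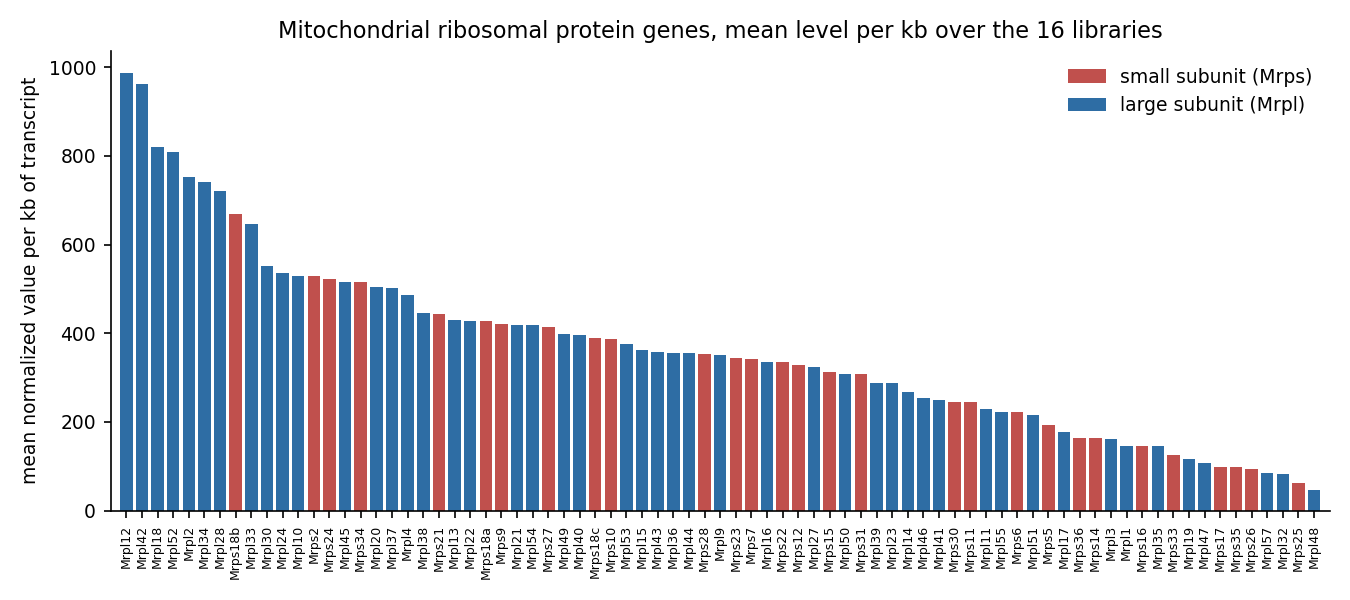
Bars give the mean normalized value per kb of the longest protein-coding transcript for each of the 77 genes over the 16 libraries, starting at 0, in red for Mrps and blue for Mrpl symbols. *Mrpl12* is highest at 988 per kb and *Mrpl48* lowest at 45.6 per kb, and both subunits spread over most of the order.

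The summed normalized value of the 77 genes stayed within 35896 (SP, set 3) and 44873 (SATS, set 3) in all 16 libraries, and the ratio of the *Mrpl* to the *Mrps* sum within 1.89 and 2.12. The coefficient of variation of a member over the 12 libraries of sets 2 and 3 had a median of 11.2%, against 12.6% for the genes with a mean of at least 50. It was lowest for *Mrpl4*, at 4.51%, and highest for *Mrps15*, at 27.3%.

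With SP, the median of these genes lay close to scr. Over the 3 sets (SP a, b and c entered as their mean, since they share 1 scr library), the members' log2 differences from scr had a median of -0.03 (all genes 0.01) and ran from -0.27 (*Mrpl2*) to 0.41 (*Mrps6*), with 28 of 77 higher. Without set 3 the median was 0.00940 with 42 of 77 higher, and without SP c of set 1 it was -0.00217. In set 1 itself, 53 and 51 members were higher than scr with SP a and b and 30 with SP c. In all 3 sets, 3 members were higher (16.8% of the genes with a mean of at least 50) and 19 lower (15.5%). No member passed an adjusted p under 0.05 in the limma fit across all genes, with or without the replicate set as a block, and neither did any other gene (0% of 15970). *Stag1* itself, at 17.5% to 32.8% of scr in the SP libraries, was thus not called by limma. The lack of calls therefore does not show that the members were unchanged. At an unadjusted p under 0.05 the fit without the block held 0 members (0.526% of all genes) and the fit with it held 1 (5.85% of all genes), *Mrps6*. edgeR and DESeq2 called 0 members, and edgeR with the block also 0, with 0.413% of all genes called.

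*Mrps6*, homologous to a bacterial small-subunit protein, had normalized values of 179, 187 and 169 in the SP libraries of set 1 beside 121 in scr, 246 beside 201 in set 2 and 199 beside 152 in set 3. All 5 SP libraries were thus above the scr library of their set, by 0.29 to 0.63 on the log2 scale. Untreated cells were above scr by 0.18 and luciferase siRNA by 0.13. In sets 2 and 3, *Mrps6* was also above scr with 3p (0.20 and 0.11), 5p (0.03 and 0.25) and SATS (0.02 and 0.27). The SP libraries of set 1 share 1 scr library, in which *Mrps6* had 18 reads. Its log2 difference over 3 sets was 0.41 (SE 0.14 with the block, unadjusted p = 0.0218, adjusted p = 0.759). *Mrps6* shares exon bases on the same strand with *Slc5a3*, whose mean log2 difference under SP in sets 2 and 3 was -0.04. *Mrpl27* had a log2 difference of 0.74 in set 1, against -0.05 in set 2 and -0.11 in set 3, and it was at 134 in scr of set 1, its lowest library. *Mrpl2* was at -0.54, 0.07 and -0.35 in sets 1, 2 and 3, and *Mrps14* at -0.57, -0.16 and -0.01. The size thus varied across sets, and for *Mrpl27* and *Mrpl2* the direction did too.

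Within sets 2 and 3, 64 of 77 members were lower with SP than with scr, with a median log2 difference of -0.08. The shift lay in set 3 (68 of 77 lower, median -0.12) more than in set 2 (42 of 77 lower, median -0.01). Marker genes were also read with SP: the sum of 7 pluripotency markers was 33086 in scr and 31421 in SP of set 2 and 32091 and 28586 in set 3 (1 higher and 4 lower in both sets), and that of 6 primitive endoderm markers 281 and 332, and 195 and 240 (3 higher and 0 lower). The sum of 6 trophoblast markers was 14907 and 13877, and 5089 and 4523 (0 higher and 4 lower), and that of 6 fibroblast markers 2811 and 2698, and 545 and 375 (1 higher and 4 lower). Their part in the SP difference was not tested. Lower in both sets were 39 members, a count to read against 30.2% of the genes with a mean of at least 50, and higher in both were 6, against 29.2%. No member was called without the block (0.00606% of all genes) or with it (0.746%). An unadjusted p under 0.05 was held by 0 members without the block (2.49% of all genes) and for 6 with it (12.5%). edgeR and DESeq2 called 0. *Mrps17* stood lowest relative to scr, at 512 in scr and 405 in SP of set 2 and at 539 and 430.4 in set 3 (log2 difference -0.33, SE 0.10, adjusted p = 0.169, limma with the block), and *Mrpl51* was at 758 and 688, and at 742 and 564 (log2 difference -0.27, adjusted p = 0.270 with the block). In set 1, *Mrps17* was higher in all 3 SP libraries (484, 560 and 515) than in scr (429), the opposite of the other sets. The highest differences were those of *Mrps6* (0.34) and *Mrps25* (0.14).

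**Figure D2:**
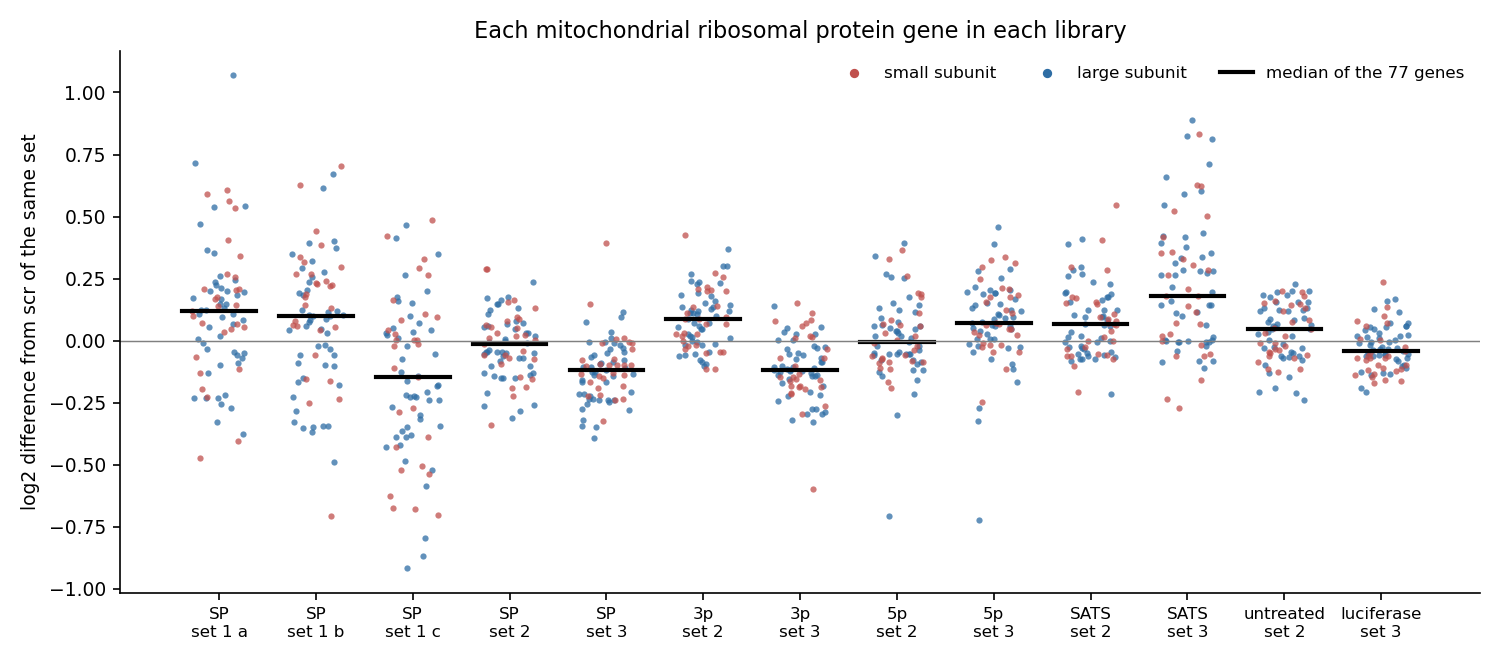
Each point is 1 of the 77 genes, and the vertical axis is the log2 difference of its normalized value plus 1 from scr of the same set, for each of 13 libraries. Black lines are medians, which lie between -0.14 (SP, set 1 c) and 0.18 (SATS, set 3), and the lowest point of both 5p columns is *Mrpl49*.

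With the 3p pool the members lay on opposite sides of scr in the 2 sets. In set 2, 55 of 77 were higher than in scr (median log2 difference 0.09), and in set 3, 60 of 77 were lower (median -0.12), so that their median over both was -0.02. No member was called by limma without the block (0.00606% of all genes) or with it (0.285%), and edgeR and DESeq2 called 0. Unadjusted p-values under 0.05 were held by 0 members without the block (1.73% of all genes) and 2 with it (10.4% of all genes). *Mrps25* had the highest difference, at 315 in scr and 423 in 3p of set 2 and at 332 and 337 in set 3 (log2 difference 0.22, adjusted p = 0.478 with the block). *Mrps12* had the lowest difference over both sets (-0.28), yet it was at 325 and 332 in set 2 and at 263 and 174 in set 3, so that the difference from scr was 0.03 in set 2 and -0.60 in set 3 and lay in 1 library. *Mrpl45* (-0.18) and *Mrps21* (0.21) came next and were not called.

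The controls were also compared with each other. Untreated cells against scr of set 2 had 45 of 77 members higher and a median log2 difference of 0.05, and luciferase against scr of set 3 had 27 higher and a median of -0.04, with 1 library of each and no test. Single members differed between controls by -0.24 to 0.24. Marker sums in untreated cells and scr of set 2 were 5625 and 2811 for fibroblast and 13955 and 14907 for trophoblast. They were 349 and 281 for primitive endoderm and 35890 and 33086 for pluripotency. With luciferase siRNA and scr of set 3 they were 376 and 545, 4924 and 5089, 193 and 195, and 31607 and 32091, in the same order. Their part in these differences was not tested.

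*Mrpl49*, which encodes a large-subunit protein with no bacterial homologue (chr19:6053622-6057785, minus strand, GRCm38), was lower with 5p than with scr. Its normalized value was 472 in 5p of set 2 and 468 in 5p of set 3. The other 10 libraries of these sets held 686 to 806, and the 4 libraries of set 1, which had no 5p, held 643 to 804. Both 5p libraries were therefore below all 14 others. *Mrpl49* was the only member with both 5p libraries below the other 10 of sets 2 and 3 (3.57% of the genes with a mean of at least 50). In scr the mean was 772 ± 1.27 (SD, n = 2) and in 5p 470.3 ± 3.06 (SD, n = 2), a log2 difference of -0.71 (-0.71 in set 2 and -0.72 in set 3). In the limma fit without the block, adjusted p was 0.206 (SE 0.09). With the replicate set as a block it was 0.000402 (SE 0.08), the only member called (2.37% of all genes called, against 0.0121% without the block). The adjusted p was 0.000513 in edgeR with the block, which called no other member (2.41% of all genes). Without the block edgeR called 0 members (2 of 16490 genes), and DESeq2 called *Mrpl49* among 68 of 16490 genes.

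*Mrpl49* overlaps the exons of *Syvn1* on the other strand. *Syvn1* was at -0.16 with 5p, -0.15 with 3p and -0.29 with SATS on the log2 scale, while *Mrpl49* was at -0.14 with 3p and -0.04 with SATS. With SP, *Mrpl49* was at -0.06 in set 2 and -0.11 in set 3, and *Syvn1* at 0.05 over both. *Stag1* stood at 21.6% and 17.5% of scr with SP in these sets and at 23.5% and 19.0% with 5p. The difference between 5p and 3p itself was -0.58 for *Mrpl49* (adjusted p = 0.00144 with the block, 0.362 without), the only member called in that comparison (3.26% of all genes called with the block, 0% without). At an unadjusted p under 0.05 without the block it was also the only one of the 77 (4.09% of all genes). Without the block edgeR called 0 members and DESeq2 called 1, among 88 of 16490 genes.

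*Mrpl50*, with as many copies of the heptamer as *Mrpl49*, was at 598 and 535 in the 5p libraries beside 549 and 579.9 in scr, a log2 difference of 0.00. The values of the 2 sets lie on either side of scr. In all, 16 of the 77 transcripts held the heptamer (20.8%, against 38.1% of 14722 tested genes with a transcript) and 10 held it in the 3′ UTR (13.0%, against 13.2%). Member transcripts are shorter, with a median of 1288 bases against 3112.5. Of the 10 with a copy in the 3′ UTR, 5 had a log2 difference below 0 with 5p, and they ran from -0.71 (*Mrpl49*) to 0.37 (*Mrpl32*). Over all genes with a mean of at least 50, the median log2 difference with 5p was 0.01 for 8997 genes without a copy in the 3′ UTR, -0.06 for 1254 with 1 copy, -0.11 for 192 with 2 copies and -0.20 for 33 with 3 or more. The median also fell with transcript length, from 0.10 up to 995 bases to 0.03 up to 1764 bases and -0.01 above. Length was not held equal between the groups by copy number. A match of letters does not show pairing, and whether the heptamer takes part in the fall of *Mrpl49* was not tested.

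The other members were not called with 5p. Their median log2 difference was 0.05 with 54 of 77 higher (34 in both sets, against 33.3% of the genes with a mean of at least 50, and 16 lower in both, against 33.5%), and the medians were -0.01 in set 2 and 0.07 in set 3. *Mrpl32*, a protein processed by the mitochondrial m-AAA protease, was at 218 in scr and 276 in 5p of set 2 and at 193 and 253 in set 3 (log2 difference 0.37, adjusted p = 0.149 with the block). *Mrps36* was at 103 and 133, and at 84.5 and 107 (0.35, adjusted p = 0.162). *Mrpl19*, which holds no copy of the heptamer, was at 609 and 524 and at 632 and 523 (-0.24, adjusted p = 0.162). With and without the block, 7 and 2 members held an unadjusted p under 0.05, where 15.7% and 3.63% of all genes did. Against 3p, the members next after *Mrpl49* were *Mrpl23* (0.26), *Mrpl32* (0.26) and *Mrpl52* (-0.25), none of them called.

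**Figure D3:**
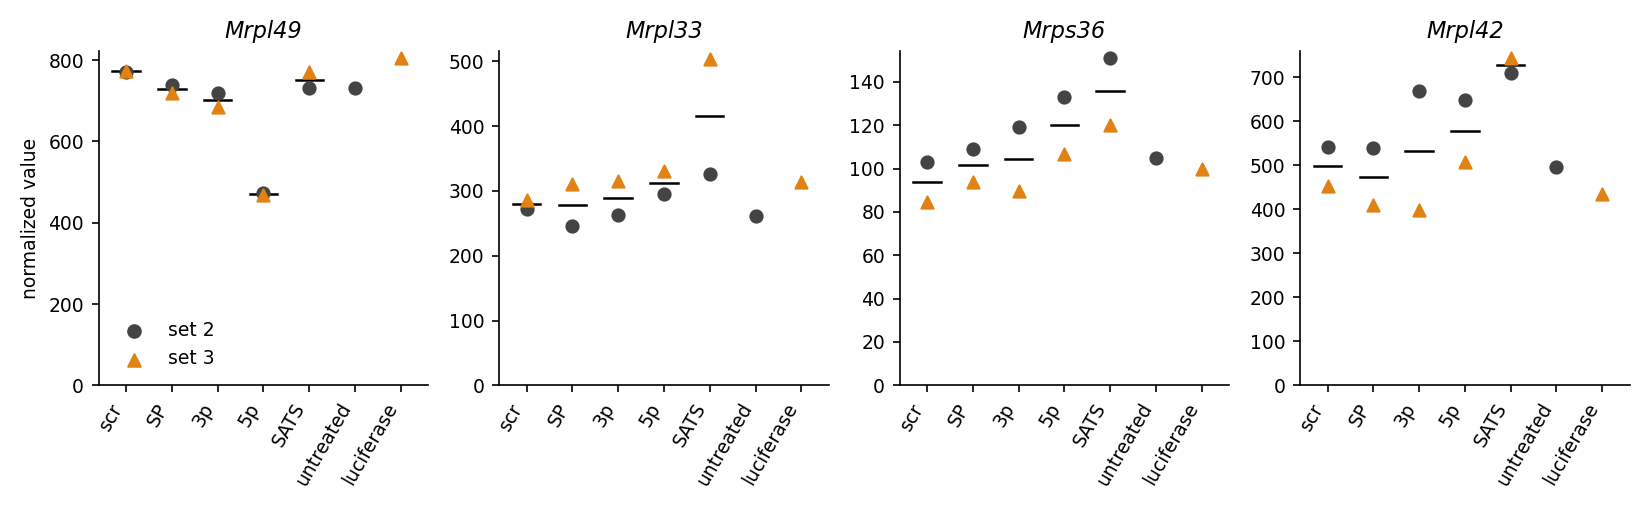
Normalized values of 4 genes in the 12 libraries of sets 2 (grey circles) and 3 (orange triangles), with axes from 0 and a black bar at the mean of each group of 2 libraries. *Mrpl49* is at 472 and 468 with 5p and at 686 or more elsewhere, and *Mrpl33*, *Mrps36* and *Mrpl42* are higher with SATS than with scr in both sets.

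With SATS, most members were higher than in scr. Of 77, 61 were higher and 16 lower, with a median log2 difference of 0.13 against 0.00 for all genes, and the medians were 0.07 in set 2 and 0.18 in set 3. Higher in both sets were 41 members, to be read against 36.2% of the genes with a mean of at least 50, and lower in both were 13, against 34.8%. In 9 members, *Mrpl1*, *Mrpl30*, *Mrpl35*, *Mrpl42*, *Mrpl45*, *Mrpl47*, *Mrpl50*, *Mrps10* and *Mrps28*, both SATS libraries lay above all other 10 libraries of these sets, against 4.14% of the genes with a mean of at least 50, and in 0 did both lie below (3.44%). These 9 were listed by that order after their values were seen. Among the libraries of sets 2 and 3, the members spread most widely in SATS of set 3 (SD of the log2 differences 0.26). The genes with a mean of at least 50 also spread most widely there (SD 0.28). In that library *Mrpl41* was at 339 beside 183 in scr (log2 difference 0.89), although in set 2 *Mrpl41* was at 196 and 188.

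In the limma fit without the block no member was called (0% of all genes), 6 held an unadjusted p under 0.05, all of them higher (3.94% of all genes in either direction), and edgeR and DESeq2 called 0. With the block, 3 were called, all higher (1.9% of all genes were called higher and 2.64% in either direction), 21 held an unadjusted p under 0.05, all higher (10.8% of all genes), and edgeR with the block called 5 (3.34% of all genes). *Mrpl33*, a small protein with a bacterial homologue, was at 273 in scr and 327 in SATS of set 2 and at 286 and 503 in set 3 (log2 difference 0.54, SE 0.12, adjusted p = 0.0353). *Mrps36* was at 103 and 151, and at 84.5 and 120.2 (0.52, SE 0.12, adjusted p = 0.0368). *Mrpl42*, which has no bacterial homologue, was at 542 and 710.4, and at 453 and 743 (0.55, SE 0.14, adjusted p = 0.0472). The difference of *Mrps36* was of similar size in both sets (0.54 and 0.50), and those of *Mrpl33* and *Mrpl42* were larger in set 3. *Mrps36* was above the scr library of its set in all 13 other libraries, by 0.36 and 0.34 with 5p, 0.21 and 0.08 with 3p, 0.08 and 0.15 with SP in sets 2 and 3, 0.24 with luciferase siRNA and 0.02 in untreated cells. The lowest differences with SATS, those of *Mrps2* (-0.17) and *Mrpl19* (-0.16), were not called.

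The members of both subunits had similar medians with SATS. The median was 0.14 for the 29 *Mrps* genes (22 higher) and 0.12 for the 48 *Mrpl* genes (39 higher), and it was 0.13 for the 46 genes with a bacterial homologue (36 higher) and 0.12 for the other 31 (25 higher). None of these splits was tested.

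The difference with SATS went with GC content in the members and in all genes, and less with transcript length in the members. The 25 members with the lowest GC content (up to 47.4%) had a median of 0.25, the next 26 a median of 0.11 and the 26 above 52.5% a median of 0.10. Genes in the same GC ranges, among 10476 with a mean of at least 50 and a transcript, had medians of 0.11, -0.02 and -0.06, so that the members stood above them in each range. For length the picture differed. The 25 members of up to 995 bases had a median of 0.19 beside 0.23 for 451 genes of that length, the next 26 had 0.09 beside 0.08, and the 26 over 1764 bases had 0.11 beside -0.02. Across the members, Spearman's rho of the difference with GC content was -0.37 (n = 77 genes, all measured in the same libraries), and across the 10476 genes it was -0.40. With transcript length it was -0.20 across the members and -0.29 across the 10476 genes. The 3 genes called with the block were all in the group with the lowest GC content and in that with the shortest transcripts. The part of base composition and length in the SATS difference was not tested.

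**Figure D4:**
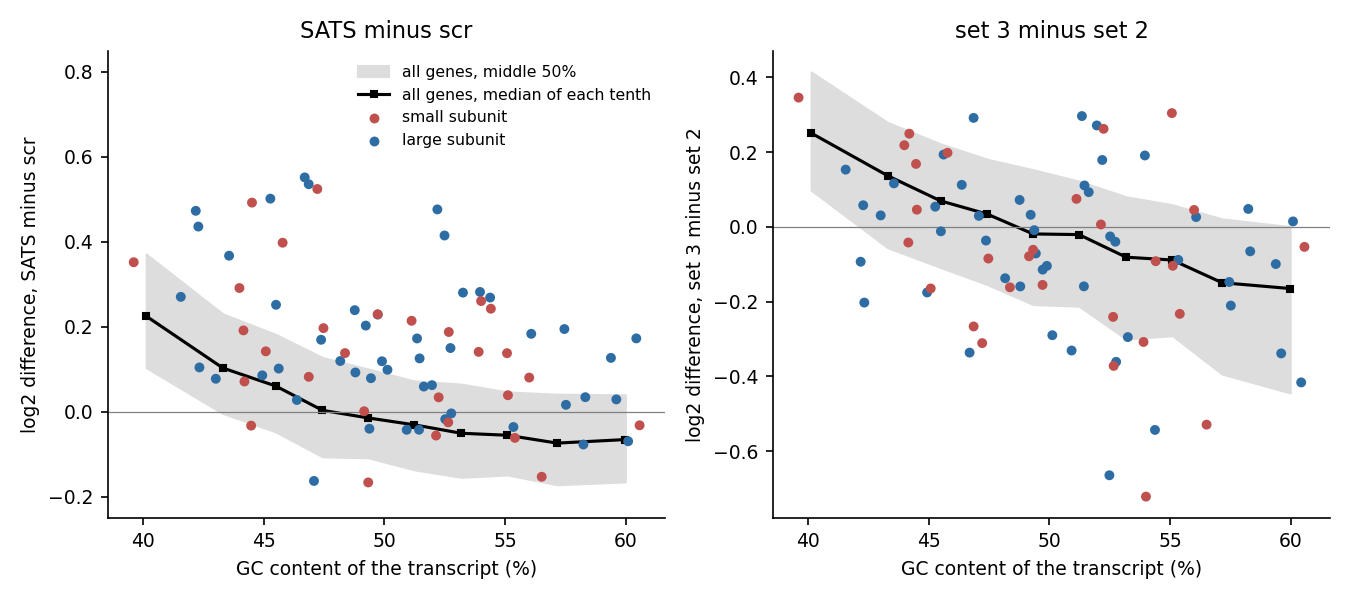
Log2 difference of each of the 77 genes (red Mrps, blue Mrpl) against the GC content of its transcript, for SATS minus scr (left) and set 3 minus set 2 (right). The black line joins medians of all genes with a mean of at least 50 in 10 equal groups by GC content, and the grey band holds their middle 50%: with SATS the members' medians by GC group are 0.25, 0.11 and 0.10, above those of all genes.

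Marker genes of other cell types were checked beside this. The summed normalized value of 6 trophoblast markers was 14907 in scr and 19347 in SATS of set 2 and 5089 and 7699 in set 3, most of it from *Krt8*, with 1 of the 6 higher in both sets and 4 lower. The sum of 6 fibroblast markers was 2811 and 3607 in set 2 and 545 and 529 in set 3, and *Lum* and *Dcn* were at or near 0 in all libraries (highest values 1.44 and 8.05). The sum of 6 primitive endoderm markers was 281 and 334, and 195 and 194. Their part in the SATS difference was not tested.

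SATS against 5p gave the difference between these siRNAs itself. With the block 5 members were called, all higher with SATS (4.11% of all genes were called higher and 6.42% in either direction). The edgeR fit with the block called 6 (6.69% of all genes). But with libraries scaled to equal totals without *Rn45s* and *Lars2*, the block left 2 (1122 of 16487 genes called). Without the block limma called none (0.00606% of all genes), 5 held an unadjusted p under 0.05 (5.4%), and edgeR called 0. DESeq2 called 1 (112 of 16490 genes called). *Mrpl49* differed by 0.67 (adjusted p = 0.000340 with the block). The others were *Mrps9* (0.35, adjusted p = 0.0298), *Mrpl52* (0.44, 0.0315), *Mrpl50* (0.43, 0.0373) and *Mrps14* (0.42, 0.0413). *Mrps9* was at 482 with 5p and 611 with SATS in set 2 and at 461 and 588 in set 3, and scr lay between them in both sets (549 and 476). *Mrpl52* had the same order, with 361, 403 and 439.5 for 5p, scr and SATS in set 2 and 315, 395 and 475 in set 3. For *Mrpl50* the higher value in set 3 (882 with SATS, 535 with 5p) outweighed set 2 (661 and 598), and *Mrps14* was at 776 and 515 in set 3 but at 481 and 405 in set 2. *Mrps18c* differed by 0.53 without a call, at 334 and 288 in set 2 and 552 and 306 in set 3. The lowest differences, *Mrpl23* (-0.21) and *Mrps2* (-0.20), were not called.

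The other genes of the pathway were taken from 6 lists, and the counts called in them stand beside 2.37% of all genes with 5p and 2.64% with SATS, both with the block. With 5p and the block, *Mrrf*, the factor that recycles mitochondrial ribosomes, fell by 0.71 on the log2 scale (adjusted p = 0.00284, 1 of 15 translation factors called), and *Grsf1*, which binds mitochondrial RNA in granules, fell by 0.56 (adjusted p = 0.00224, 1 of 27 assembly and rRNA modification genes). With SATS and the block, *Chchd1*, a small-subunit protein without an Mrp symbol, rose by 0.63 (adjusted p = 0.0369, 1 of 6), *Slirp*, which stabilizes mitochondrial mRNAs and was listed with the translation factors, rose by 0.77 (adjusted p = 0.0324, 1 of 15), and *Fastkd2*, needed for the large-subunit rRNA, rose by 0.47 (adjusted p = 0.0360, 1 of 27). None of these genes was called without the block. With SATS the median was 0.12 for the 6 mitoribosome proteins without an Mrp symbol (6 higher), but -0.06 for assembly and rRNA modification (9 of 27 higher), 0.01 for translation factors (8 of 15), -0.05 for mitochondrial aminoacyl-tRNA synthetases (7 of 20), 0.09 for mitochondrial DNA maintenance and transcription (8 of 11) and -0.02 for nuclear regulators (4 of 9). None of these differences between lists was tested. No gene of the 6 lists was called with SP or 3p.

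The replicate sets gave more calls than any siRNA did. This comparison had 5 libraries on each side, while an siRNA in sets 2 and 3 had 2, so the counts differ in power. With the siRNA as a term, 35 of 77 members were called between set 3 and set 2 (51.6% of all genes), 11 of them higher in set 3 (24.2% of all genes) and 24 lower (27.4%), with a median log2 difference of -0.06. Its 5 siRNA groups were those with a library in both sets. With libraries scaled to equal totals without *Rn45s* and *Lars2*, the split was 14 higher and 18 lower (4491 and 4114 of 16487 genes). In edgeR it was 13 and 18 (4312 and 4187 of 16490 genes). Of the 35, 30 had the same sign with scr, SP, 3p, 5p and SATS. Lower in set 3 with all 5 siRNAs were 19 members, to be read against 30.3% of the genes with a mean of at least 50, and higher were 11, against 28.3%. Marker sums in scr of sets 2 and 3 were 2811 and 545 for fibroblast and 14907 and 5089 for trophoblast. They were 281 and 195 for primitive endoderm and 33086 and 32091 for pluripotency. Their part in the set difference was not tested.

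*Mrps15*, homologous to a bacterial small-subunit protein, was the lowest in set 3 relative to set 2. Its normalized values in set 2 were 309.5 (scr), 329 (SP), 359 (3p), 371 (5p), 411 (SATS) and 286 (untreated), and in set 3 they were 224, 189, 203, 217, 242 and 204 (luciferase). The sets do not overlap. The log2 difference was -0.72 (SE 0.07, adjusted p = 9.13e-07). *Mrpl20* differed by -0.66, *Mrpl40* by -0.54, *Mrps12* by -0.53, *Mrpl38* by -0.34 and *Mrpl36* by -0.33, and all were lower in set 3 with each siRNA. *Mrps14* (0.35), *Mrps24*, the homologue of a bacterial protein at the mRNA entry (0.30), and *Mrps27*, a pentatricopeptide repeat protein (0.26), were higher in set 3. *Mrps24* shares exon bases with *Urgcp*, and its rise was largest with 5p (0.61) and SATS (0.57) and 0.02 with 3p. *Mrpl36* overlaps *Ndufs6* on the other strand and *Mrps27* a gene listed as *6430562O15Rik*.

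**Figure D5:**
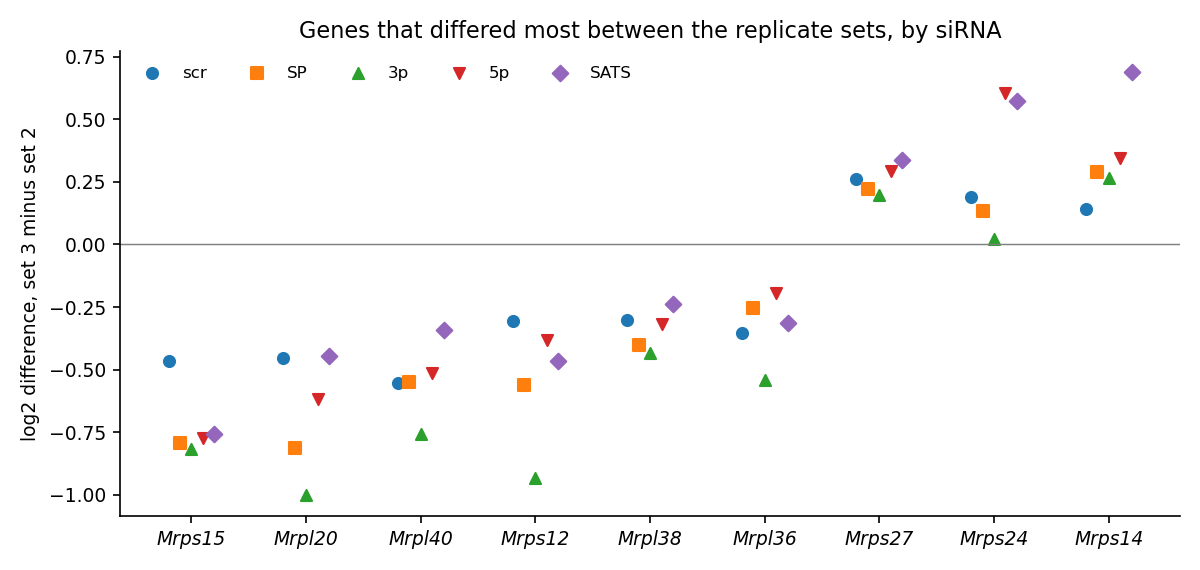
Log2 difference in normalized value plus 1 between set 3 and set 2 within each siRNA, for the 9 genes named in that comparison. The 6 genes on the left are below 0 and the 3 on the right above 0 with each of scr, SP, 3p, 5p and SATS, with *Mrps15* between -0.82 (3p) and -0.47 (scr).

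The members' medians between sets depended on the siRNA, at -0.02 with scr, -0.15 with SP, -0.25 with 3p, 0.05 with 5p and 0.10 with SATS. By GC content the members went with all genes here also: the 25 with the lowest GC content had a median of 0.05 and the 26 with the highest -0.13, beside 0.14 and -0.13 for all genes in these ranges. Among the lists, *Tfam*, which packages mitochondrial DNA, was higher in set 3 by 0.29 and *Ptcd3* by 0.32. *Nrf1*, a regulator of nuclear genes for mitochondria, was higher by 0.13. *Myc* was lower by 0.51 (log2 difference -0.51) and *Gadd45gip1* by 0.27 (-0.27). These are examples from lists whose differences ran from -1.25 to 0.60. Called higher and lower were 10 and 3 of 27 assembly and rRNA modification genes and 8 and 4 of 20 synthetases. For mitochondrial DNA genes they were 5 and 1 of 11, and for nuclear regulators 4 and 2 of 9. For translation factors they were 3 and 1 of 15, and for proteins without an Mrp symbol 1 and 1 of 6. Of all genes, 24.2% were called higher and 27.4% lower.

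Promoters of these genes were read from RefSeq (GRCm38.p6, from 250 bases before to 50 after the start), which gave 68 of the 77. They were searched on both strands for letters of sites known from nuclear genes for mitochondria, and no motif searched contains another. CCGGAAG, a core bound by GABPA and other ETS factors, was in 36.8% of them, against 15.9% of the 13429 genes of the table with a promoter and 21.5% of those with a mean of at least 50. AAGATGGCG, bound by YY1, was in 11.8%, against 2.73% and 3.98%. GCGCATGCGC, bound by NRF1, was in 4.41%, against 1.87% and 2.59%. For comparison, CACGTG (the E-box) was in 7.35% against 10.8% and 12.4%, and TATAAA in 7.35% against 10.1% and 8.03%. A match is a description of these letters and not a bound site. The windows of *Mrpl33* and *Mrpl42*, called with SATS, and of *Mrpl32* show 1 example of each, with the motif in capitals.
Mrpl33, CCGGAAG, chr5:31613937-31613966, plus strand: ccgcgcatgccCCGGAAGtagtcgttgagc
Mrpl42, AAGATGGCG, chr10:95501903-95501932, minus strand: agattgaagcAAGATGGCGagcgcgcggtg
Mrpl32, GCGCATGCGC, chr13:14613105-14613134, minus strand: tttgacccttGCGCATGCGCaagaggggcc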

How the data were processed

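Total RNA of serum-grown mESCs was depleted of rRNA and sequenced by the authors (75 bp reads, directional kit). The authors used hisat2 for alignment (build mm10), featureCounts to assign reads to genes, and DESeq2 size factors to scale them, so that each deposited signal is a number of reads divided by the factor of its library (DESeq2 1.14.1 and edgeR 3.16.5 per the submitters' processing notes). Values were whole multiples of 1 read for 100% of values (tolerance 1e-06 of the value), which gave the depth per library. The design text names paired-end reads and the methods name paired-end or single-end reads, and which applies to each library, with the strand setting for single-end reads, is not given in the sources used here, so overlapping and antisense genes are uncertain (27 members overlap exons on the other strand, 8 on the same strand and 3 have named pseudogene copies). A CPM table of set 1 holds the same libraries and was not used here, and 2 libraries of cells in 2i were not analysed here.

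Groups and set numbers came from the labels. R 4.3.3 and limma 3.58.1 (trend) were used to fit log2(value + 1) for genes whose values summed to 10 or more over the libraries fitted, with Benjamini-Hochberg adjustment over all genes and a threshold of 0.05. Such differences understate changes of low genes. edgeR 4.0.16 (quasi-likelihood, TMM) and DESeq2 1.42.0 were run on the recovered reads. SP and scr were fitted over 3 sets, and scr, SP, 3p, 5p and SATS over sets 2 and 3. The sets pair the libraries: they are replicate sets in the series' design text, and deviations from group means correlated at 0.772 to 0.823 (SP and scr) and 0.809 to 0.934 (sets 2 and 3) for libraries of the same set, over genes with a mean of at least 50. All siRNAs share the scr libraries. Alternatives were pseudocounts of 0.1 and 10, no filter, other scalings, other tools, the replicate block, joined controls and leaving out libraries. The fits were also run on simulated reads in which the shift between sets was the same for every siRNA. That run could not test the block where the shift differs by siRNA. Named genes were those past the threshold with or without the block (at most 8 per comparison), the 2 largest rises and falls per comparison with a mean of at least 50, the 3 highest and lowest levels, and genes set by role; others are named as chosen by their values. *Mrpl58* is not a row of the table under that symbol, and the mRNAs of mitochondrial DNA were not analysed here. Members and lists were chosen with earlier results of these data known. Depth bounds counting error only.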

Additional observations from a re-analysis of the deposited data

Results flagged for a closer look

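*Mrpl19* had 1 SP library apart from the other 4. Its normalized values were 588 (a), 572 (b) and 491 (c) with SP in set 1, 589 in set 2 and 576 in set 3. The library apart, SP c of set 1, had the lowest depth (9023224 reads on genes, 61 on *Mrpl19*) and the members as a whole were lower there than in scr (47 of 77, median log2 difference -0.14). The gap between the lowest and the next was 0.830 of the whole range, above Dixon's critical value of 0.71 for 5 samples. It was the only one of 43 groups of values tested for such a gap that had one, and chance gives about 1 in 20.

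Differences between siRNAs, tested directly by limma with the replicate block, were found for *Mrpl49* between 5p and 3p (log2 difference -0.58, lower with 5p in 2 of 2 sets) and between SATS and 5p (0.67). Between SATS and 5p they were also found for *Mrpl50* (0.43), *Mrpl52* (0.44), *Mrps9* (0.35) and *Mrps14* (0.42), all higher with SATS in 2 of 2 sets. Without the block limma called none of these 6.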

How the results depend on the processing

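The alternatives to limma without the block changed the number of members called as follows. Counts of all genes called are given in brackets, of 16490 tested unless stated. With 5p, *Mrpl49* was the 1 member called by DESeq2 (68), with the replicate block (391) and by edgeR with the block (397). It was also the 1 called with the block under equal totals without *Rn45s* and *Lars2* (415 of 16487), TMM scaling (410) or a pseudocount of 10 (396). With untreated and luciferase libraries joined to scr it was called as well (27 of 16684), and 0 members were called otherwise. With SATS the count went from 0 to 3 with the block (436), also under equal totals (440 of 16487) or TMM scaling (453). It went to 2 with the block and a pseudocount of 10 (393), and to 5 in edgeR with the block (550). Between 5p and 3p it went from 0 to 1 in DESeq2 (88) and in all fits with the block (525 to 561 of 16487 or 16490). Between SATS and 5p it went from 0 to 5 with the block (1059), also with a pseudocount of 10 (1017). It went to 6 in edgeR with the block (1103) or under TMM scaling with it (1080). Under equal totals with the block it went to 2 (1122 of 16487), and to 1 in DESeq2 (112) or with joined controls (17 of 16684). The members' median between SATS and 5p was 0.0760 as reported by limma and 0.0225 under equal totals without *Rn45s* and *Lars2*, with and without the block. The block changed no other call of a member. Between sets, 23 members were called without the siRNA term (6872 of 16490 genes). With 1 siRNA group left out, 25 to 33 were called (7327 to 7892 of 16177 to 16218 genes). Leaving out 1 library at a time (a lone library was assumed to vary like the other groups) was done without the pairing, so values without 1 library of a pair also hold the difference between sets. The members' median with SP in sets 2 and 3 ran from -0.13 (without SP of set 2) to -0.00075 (without SP of set 3). With whole sets left out of the 3, the members' median with SP ran from -0.08 (without set 1) to 0.00940 (without set 3). *Mrpl27* with SP over 3 sets ran from -0.0798 (without set 1) to 0.34 (without set 3). With 3p, *Mrps21* ran from -0.0728 (without 3p of set 2) to 0.48 (without 3p of set 3) and was at -0.02 without scr of set 3, and *Mrps12* ran from -0.75 (without 3p of set 2) to 0.18 (without 3p of set 3), while within sets 2 and 3 *Mrps21* was at 0.26 and 0.15 and *Mrps12* at 0.03 and -0.60. *Mrpl23* between SATS and 5p ran from -0.43 (without 5p of set 2) to 0.00407 (without 5p of set 3). *Mrps24* between sets, at 0.30, had an adjusted p of 0.0546 with no filter on low values. Of 686 alternatives for single genes, 629 kept direction and side of the threshold, 51 came to pass it, 5 turned direction and 1 lost its call. Otherwise the cause of these changes was not tested. Depth limits set 1 most, where the lowest member had 14 reads.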
